A study of Mus musculus with 34 samples.

Results

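Pcdh18, Racgap1, Chodl, Mrvi1 and Frmpd3 are 5 mouse genes whose injury effect, the log2 ratio of their level on the side of a sciatic nerve crush to that on the other side, was higher in mice without neuronal ATF3 than in mice with it. For Chodl, Mrvi1 and Frmpd3 that effect was negative in mice with ATF3. The 5 are among 48795 genes in the count table, and all of them were among the 19565 genes that passed the filter on low counts. They were picked from these same libraries because the injury effect, injured over naive with its sign, was larger in ATF3 cKO mice than in wt mice. Every value of the injury effect, of the genotype comparison on either side and of their difference is therefore given for these genes as a description with no test.

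Libraries came from cells of lumbar dorsal root ganglia L4 to L6, enriched for neurons on a 20% Percoll layer, 3 days after a crush of the left sciatic nerve in mice 8 to 12 weeks old. The 8 cKO mice (Adv-Cre+, ATF3-fl_homo) carried Cre recombinase driven by the sensory neuron gene advillin and 2 copies of Atf3 with a floxed exon 3, which leaves Atf3 in cells where advillin is not active. The 9 control mice, called wt, were of 3 kinds: 4 females were Adv-Cre- with ATF3-fl_het, 2 females were Adv-Cre- with wt Atf3, and 3 males were Adv-Cre+ with wt Atf3. No control mouse was both Adv-Cre+ and floxed. Each mouse gave an injured library from the crushed side and a naive library from the other side, so the groups were 8 cKO injured, 8 cKO naive, 9 wt injured and 9 wt naive libraries. The cKO group held 3 males and 5 females, and the wt group 3 males and 6 females. Mice are named by genotype and animal number, as in cKO-131.

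The proteins of these genes belong to separate families. Pcdh18 is a delta-protocadherin, a transmembrane protein of the cadherin superfamily; delta-protocadherins take part in adhesion and recognition between neurons. Racgap1 is a GTPase-activating protein for small GTPases and, bound to the kinesin Kif23, forms centralspindlin, the complex that gathers microtubules at the middle of a dividing cell. Chodl (chondrolectin) is a membrane protein with a C-type lectin domain that is used in the mouse as a marker of fast motor neurons. Mrvi1, also called IRAG, is a target of cGMP-dependent protein kinase that sits on the inositol trisphosphate receptor of the endoplasmic reticulum and is best known from smooth muscle and platelets. Frmpd3 is named for its FERM and PDZ domains, which in other proteins tie membrane proteins to the cytoskeleton and to scaffolds. ATF3 is induced in sensory neurons when their axons are injured; it is a transcription factor of the bZIP class, whose members bind short DNA motifs of the AP-1 type (TGANTCA) and the CRE type (TGACGTCA).

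The genes lie on 5 chromosomes, so they do not form a cluster. In GRCm38, Pcdh18 (ENSMUSG00000037892) lies at chr3:49743296-49757325 on the minus strand, Racgap1 (ENSMUSG00000023015) at chr15:99620496-99651656 on the minus strand, Chodl (ENSMUSG00000022860) at chr16:78930948-78951733 on the plus strand, Mrvi1 (ENSMUSG00000005611) at chr7:110868266-110982461 on the minus strand, and Frmpd3 (ENSMUSG00000042425) at chrX:140342263-140435467 on the plus strand. All 5 are protein-coding. Mrvi1 shares 108 exonic bases with the antisense gene Gm16336 on the other strand, which had 0 to 2 counts in a library, and the other 4 overlap no exon of another gene.

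The 250 bases before the RefSeq start of each gene (GRCm38.p6), for Mrvi1 the outermost of 2 starts in the table, were read for 5 motifs on both strands, chosen with the data known. TGANTCA and TGACGTCA were found in 0 of these 5 windows, as was TATAAA, against 6.75%, 1.55% and 12.4% of 32851 RefSeq promoter windows. Only these patterns were searched and close variants were not, so 0 does not mean that no such element is present. CCAAT and GGGCGG, which lie in 33.8% and 32.7% of all windows, were found in the windows of Pcdh18 and Racgap1 and in none of the other 3. Those 2 windows are shown because Pcdh18 and Racgap1 were each the gene whose levels were closest to the other's (described after the levels), and their capitals mark an 11-base run that both hold on the gene's own strand.
Pcdh18, chr3:49757317-49757566, minus strand: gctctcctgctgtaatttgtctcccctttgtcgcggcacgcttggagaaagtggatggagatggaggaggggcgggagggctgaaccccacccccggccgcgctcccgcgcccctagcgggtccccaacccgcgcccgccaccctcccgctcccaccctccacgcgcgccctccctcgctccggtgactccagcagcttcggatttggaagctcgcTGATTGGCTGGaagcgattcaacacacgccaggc
Racgap1, chr15:99651657-99651906, minus strand: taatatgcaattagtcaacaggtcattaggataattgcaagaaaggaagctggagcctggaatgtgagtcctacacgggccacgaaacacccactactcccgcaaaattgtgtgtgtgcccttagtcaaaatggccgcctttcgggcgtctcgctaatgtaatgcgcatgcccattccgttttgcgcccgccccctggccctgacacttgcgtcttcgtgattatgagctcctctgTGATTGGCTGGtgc
The shared run, TGATTGGCTGG, contains CCAAT on the opposite strand. It lies 34 to 24 bases before the start of Pcdh18 and 14 to 4 bases before the start of Racgap1, and it is present on either strand in 79 of the 32851 windows (0.24%). It was found by searching for the longest run that the windows of Pcdh18 and Racgap1 share, so its presence in both is set by that search. The 0.24% is the share of windows with this exact run. How often 2 windows share some run of 11 bases was not computed, so nothing is read from the match. A match of letters also says nothing of what binds there.

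Mice cKO-131 and wt-150 stand apart, and the results are given with and without them where they matter. Avil, the advillin gene, was at 432.5 to 555.5 CPM (counts scaled by library total, with TMM factors) in 20 Adv-Cre+ libraries and at 792.5 to 1036 CPM in 10 Adv-Cre- libraries of the other 15 mice. Mouse cKO-131 had 88.78 CPM in its injured and 83.39 CPM in its naive library. Mouse wt-150, labelled Adv-Cre-, had 516.9 CPM in its injured and 499.2 CPM in its naive library, within the range of the Adv-Cre+ libraries. The count of the whole Atf3 gene does not show whether exon 3 was deleted: its mean was 263.5 ± 59.6 CPM in injured cKO, 118.9 ± 25.6 in naive cKO, 363.9 ± 145 in injured wt and 124.7 ± 30.8 in naive wt libraries (SD, n = 8, 8, 9 and 9). Library totals were 35732193 to 77632944 counts. The share of counts in 3 ribosomal spacer genes was 5.019% to 20.026% and split the mice into 6 with at most 10.272% (3 cKO, 3 wt) and 11 with at least 13.67% (5 cKO, 6 wt). Pan-neuronal markers summed to 10940 to 16610 CPM in injured cKO, 10790 to 16280 CPM in naive cKO, 13270 to 20540 CPM in injured wt and 12900 to 16940 CPM in naive wt libraries, with 0 of 12 at 0 in all libraries. The lowest of all these sums, 10940 CPM injured and 10790 CPM naive, were those of cKO-131. Its fibroblast markers summed to 376.5 CPM injured and 646.8 CPM naive, and its red blood cell markers to 94.46 and 156.3 CPM. Each was the highest of its side. The part of cell makeup in the values of cKO-131 was not tested. In such bulk libraries, a change in the number of cells of a type and a change of RNA per cell cannot be told apart.

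Pcdh18 had the widest spread of the 5 genes among injured cKO mice. Its level in injured cKO libraries was 11.06 CPM at the lowest, 27.46 CPM at the median and 43.69 CPM at the highest. In naive cKO libraries these values were 6.552, 9.675 and 11.79 CPM, in injured wt libraries 10.14, 10.88 and 13.99 CPM, and in naive wt libraries 6.815, 8.355 and 12.19 CPM. In 7 of 8 injured cKO libraries the level, at least 20.65 CPM, lay above every library of the other 3 groups, and the exception was cKO-131 at 11.06 CPM. The group means were 27.2 ± 9.88 CPM in injured cKO, 9.575 ± 1.85 CPM in naive cKO, 11.2 ± 1.19 CPM in injured wt and 9.356 ± 2.00 CPM in naive wt libraries (SD, n = 8, 8, 9 and 9). The fitted log2 fold change of injured over naive was 1.495 (SE 0.162) in cKO and 0.26 (SE 0.151) in wt mice. The naive sides were close, with a log2 fold change of cKO over wt of 0.02 (SE 0.156), and the difference of the injury effects, cKO minus wt, was 1.23 on the log2 scale (SE 0.220). Without cKO-131 and wt-150 it was 1.22 (SE 0.176).

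Racgap1 had nearly the same profile. Injured cKO libraries held 11.85 CPM at the lowest, 25.69 CPM at the median and 34.79 CPM at the highest, and naive cKO libraries 6.878, 7.665 and 10.23 CPM. Injured wt libraries held 9.098, 11.50 and 12.03 CPM and naive wt libraries 5.56, 7.735 and 9.459 CPM in the same order. Every injured cKO library was above every naive cKO library, and only cKO-131 fell within the range of the injured wt libraries. Injured over naive was positive in 8 of 8 cKO and in 9 of 9 wt mice, so Racgap1 was the one gene of the 5 that was higher on the injured side of every mouse of both genotypes. The fitted log2 fold change was 1.61 (SE 0.152) in cKO and 0.48 (SE 0.142) in wt mice, and the difference was 1.14 (SE 0.206), or 1.17 (SE 0.185) without cKO-131 and wt-150.

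**Figure D1:**
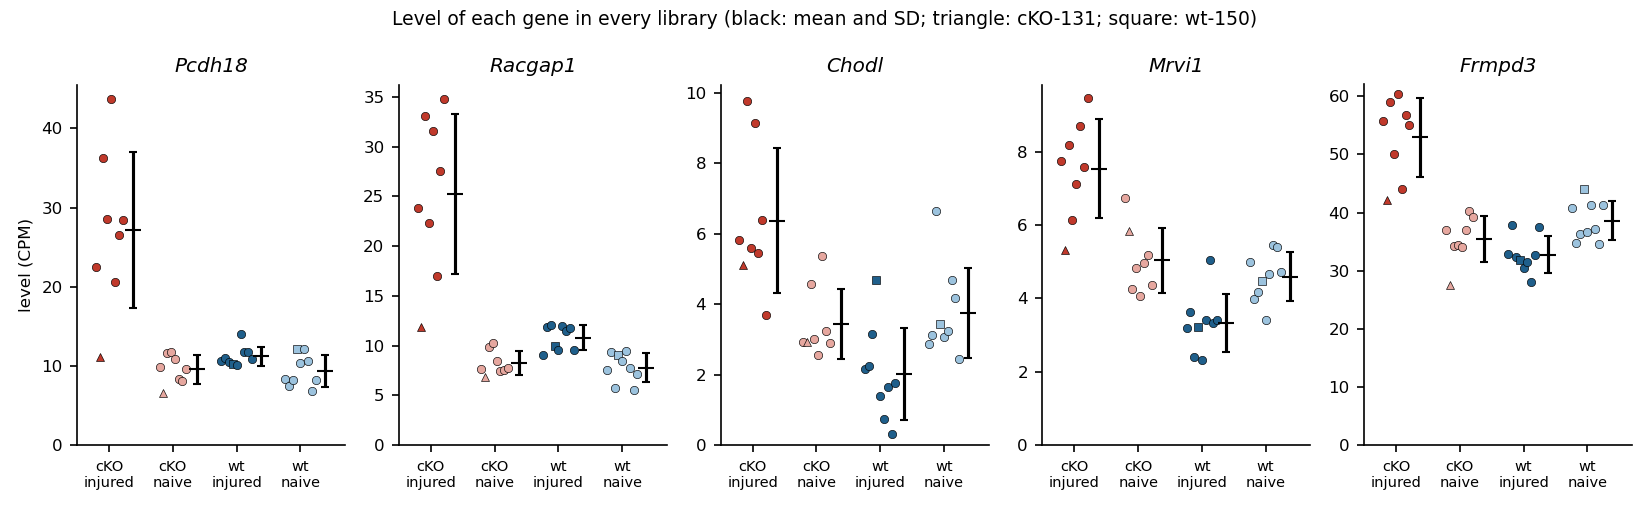
Level of the 5 genes in every library, in CPM, for cKO injured and naive (8 each) and wt injured and naive libraries (9 each). Black marks are the mean and SD, triangles are mouse cKO-131 and squares wt-150. For Pcdh18 and Racgap1, 7 of 8 injured cKO libraries lie above every library of the other groups, while Chodl, Mrvi1 and Frmpd3 are high in injured cKO and low in injured wt libraries.

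Chodl, Mrvi1 and Frmpd3 had another pattern: their mean was above the naive level in injured cKO libraries and below it in injured wt libraries. The lowest, median and highest Chodl levels were 3.69, 5.707 and 9.77 CPM in injured cKO libraries, and 2.553, 2.969 and 5.38 CPM in naive cKO libraries. In injured wt libraries they were 0.321, 1.752 and 4.679 CPM, and in naive wt libraries 2.456, 3.252 and 6.638 CPM. All 4 groups overlapped with at least one other. The means were 6.374 ± 2.06 CPM in injured cKO, 3.439 ± 0.992 CPM in naive cKO, 2.011 ± 1.30 CPM in injured wt and 3.743 ± 1.28 CPM in naive wt libraries (SD, n = 8, 8, 9 and 9). Chodl had the fewest counts of the 5 genes, with 182 to 794 in an injured cKO library and 10 to 273 in an injured wt library. The fitted log2 fold change of injured over naive was 0.92 (SE 0.277) in cKO and -0.91 (SE 0.266) in wt mice, and the difference was 1.82 (SE 0.384).

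The injured wt values of Chodl ran over a wide range, and both of its ends were mice that differ in another measure. Mouse wt-176 had 0.321 CPM, from 10 counts, and its markers of nociceptors (10 genes, including Scn10a and Trpv1) summed to 1773 CPM, against 2965 to 4373 CPM in the other 8 injured wt libraries. In all groups this sum was 3444 to 4610 CPM in injured cKO, 4478 to 4834 CPM in naive cKO, 1773 to 4373 CPM in injured wt and 4381 to 5001 CPM in naive wt libraries, with 0 of 10 markers at 0 in all libraries. With injury in wt mice, 6 of 10 nociceptor and 4 of 9 large-fibre neuron markers were called lower and 1 of each higher. Over all genes, 12.7% were lower and 14.3% higher there. In cKO mice 1 of each list was lower (0.583% of all genes), and 0 nociceptor and 1 large-fibre marker higher (2.61%). For the difference, 0 of either list passed. The part of these neuron types in the Chodl result was not tested. Mouse wt-150 had the highest injured wt level, 4.679 CPM, and was the only wt mouse with more Chodl on the injured side. Without wt-176 the difference for Chodl was 1.69, and without cKO-131 and wt-150 it was 2.09 (SE 0.382).

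Mrvi1 separated the injured groups of the 2 genotypes completely, though by little. Its lowest, median and highest levels were 5.305, 7.663 and 9.469 CPM in injured cKO libraries, and 4.07, 4.89 and 6.746 CPM in naive cKO libraries. In injured wt libraries they were 2.313, 3.338 and 5.044 CPM, and in naive wt libraries 3.416, 4.664 and 5.452 CPM. The lowest injured cKO library was again cKO-131, the only cKO mouse with less Mrvi1 on the injured than on the naive side. Mrvi1 was lower on the injured side in 9 of 9 wt mice. The group means were 7.529 ± 1.34 CPM in injured cKO, 5.03 ± 0.894 CPM in naive cKO, 3.325 ± 0.789 CPM in injured wt and 4.587 ± 0.664 CPM in naive wt libraries (SD, n = 8, 8, 9 and 9). Injured over naive was 0.59 on the log2 scale (SE 0.129) in cKO and -0.46 (SE 0.123) in wt mice, and the difference was 1.05 (SE 0.178), or 1.14 (SE 0.185) without cKO-131 and wt-150.

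Frmpd3 was the steadiest of the 5 genes and had the smallest difference. Injured cKO libraries held 42.16 CPM at the lowest, 55.43 CPM at the median and 60.39 CPM at the highest, and naive cKO libraries 27.48, 35.65 and 40.25 CPM. Injured wt libraries held 28.01, 32.33 and 37.84 CPM and naive wt libraries 34.63, 37.18 and 44.04 CPM in the same order. The injured cKO libraries lay above all naive cKO and all injured wt libraries, and overlapped the naive wt libraries only through the highest of these, wt-150 at 44.04 CPM. The means were 52.92 ± 6.80 CPM in injured cKO, 35.45 ± 3.96 CPM in naive cKO, 32.78 ± 3.14 CPM in injured wt and 38.58 ± 3.37 CPM in naive wt libraries (SD, n = 8, 8, 9 and 9). Injured over naive was 0.58 on the log2 scale (SE 0.077) in cKO and -0.24 (SE 0.073) in wt mice. The difference was 0.81 (SE 0.106), or 0.78 (SE 0.097) without cKO-131 and wt-150.

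Per kilobase of exon, the level in injured cKO libraries was highest for Frmpd3 and Pcdh18, at 5.16 ± 0.663 and 5.069 ± 1.84 CPM per kilobase, then 3.567 ± 1.14 for Racgap1, 1.161 ± 0.375 for Chodl and 1.103 ± 0.197 for Mrvi1 (SD, n = 8). Frmpd3 and Pcdh18 do not differ beyond their spread, and neither do Chodl and Mrvi1. In naive cKO libraries Frmpd3 led at 3.457 ± 0.386 CPM per kilobase and Chodl was lowest at 0.626 ± 0.181 CPM per kilobase. Chodl was also lowest in injured wt libraries at 0.366 ± 0.237 CPM per kilobase, next to Mrvi1 at 0.487 ± 0.116 CPM per kilobase.

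Counted over mice, 2 of the 5 genes, Mrvi1 and Frmpd3, had every injured cKO library above every injured wt library, a separation found for 0.174% of the genes tested; since the genes were picked on this contrast, nothing is read from the count. Injured cKO libraries lay above all naive cKO libraries for Racgap1 and Frmpd3 (1.19% of the genes tested), and in 0 of 5 genes were the injured wt libraries all below the naive wt libraries (1.37%). The log2 ratio of injured to naive within a mouse was higher in all cKO mice than in all wt mice for Frmpd3 alone (0.373%), and in 0 of 5 genes did the injured cKO libraries lie above all libraries of the other 3 groups (0.0358%). Without cKO-131 and wt-150, the injured cKO libraries of all 5 genes lay above the injured wt libraries (0.797% of the genes tested), as did all 5 ratios (0.644%), while 3 of 5 genes lay above the naive cKO libraries (2.18%) and 3 of 5 above all other groups (0.148%). Leaving out cKO-131 alone gave 4 of 5 genes above injured wt (0.69%) and 4 of 5 ratios (0.516%), with Chodl as the exception, and 2 of 5 genes, Pcdh18 and Racgap1, above all other groups (0.118%).

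The direction within a mouse was counted for each gene. The genes were picked on the difference of these effects, and the share of all genes with such counts was not computed. Nothing is therefore read from the counts of mice. All 5 genes were higher on the injured side in 7 of 8 cKO mice, and 4 of 5 in cKO-131, where Mrvi1 was lower. Of the 9 wt mice, 1 had 1 gene higher on the injured side, 7 had 2 and 1 had 3. The mean log2 ratio was 1.43 ± 0.381 in cKO and 0.28 ± 0.307 in wt mice for Pcdh18, and 1.55 ± 0.471 in cKO and 0.49 ± 0.355 in wt mice for Racgap1 (SD, n = 8 and 9). It was 0.87 ± 0.534 in cKO and -1.14 ± 1.16 in wt mice for Chodl, 0.58 ± 0.417 in cKO and -0.48 ± 0.231 in wt mice for Mrvi1, and 0.58 ± 0.180 in cKO and -0.24 ± 0.187 in wt mice for Frmpd3.

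**Figure D2:**
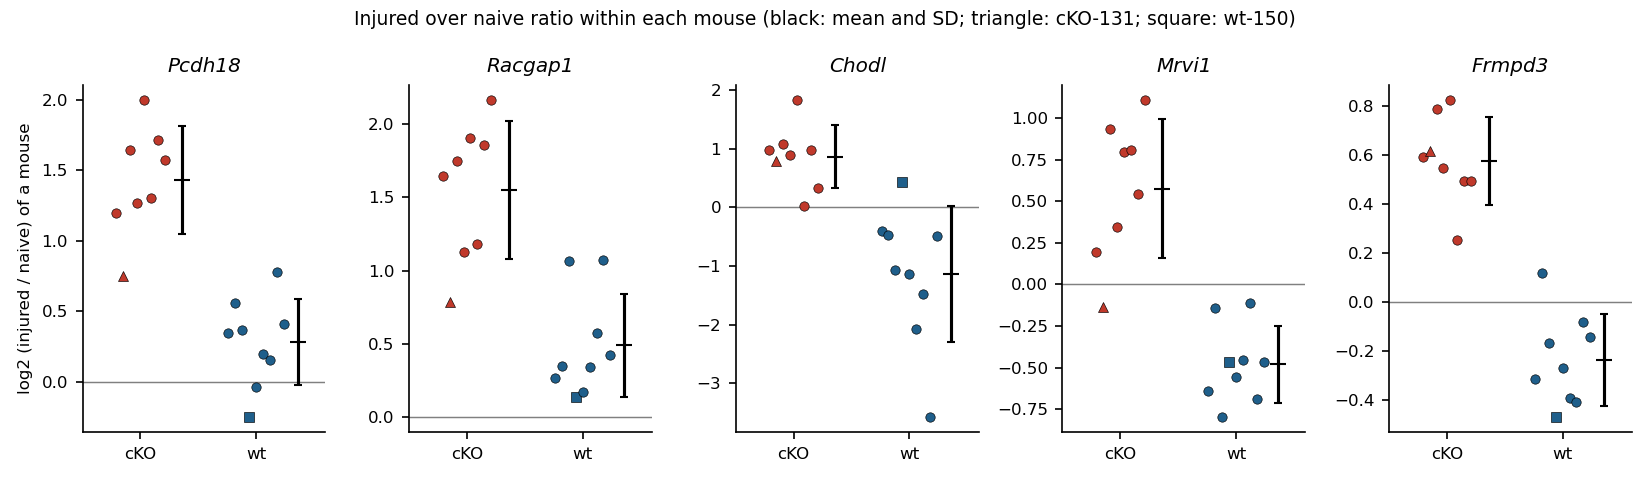
The log2 ratio of injured to naive level within each of 8 cKO and 9 wt mice for the 5 genes; black marks are the mean and SD, the triangle is cKO-131 and the square wt-150. Racgap1 lies above 0 in every mouse and Pcdh18 in every cKO and 7 of 9 wt mice, both farther above 0 on average in cKO mice, whereas Chodl, Mrvi1 and Frmpd3 lie mostly above 0 in cKO mice and mostly below 0 in wt mice.

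Among all genes tested, 136 (0.695%) had a higher and 420 (2.15%) a lower injury effect in cKO than in wt mice at an adjusted p below 0.05 (edgeR quasi-likelihood test, Benjamini-Hochberg adjustment). With the mouse as a replicate block these counts were 635 and 839. On the injured side alone, 698 genes (3.57%) were higher and 1477 (7.55%) lower in cKO than in wt mice. Of the 136 genes, 99 have a gene name that is not a predicted one and reach 5 CPM in a group. Ordered by the size of the difference, Chodl was in place 1, Pcdh18 in place 3, Racgap1 in place 4, Mrvi1 in place 5 and Frmpd3 in place 17. Kcng4, a modifier subunit of voltage-gated potassium channels, was in place 2 at 1.66 (SE 0.275), between Chodl and Pcdh18. Chst5, a sulfotransferase, in place 16 at 0.82 (SE 0.236) and Inpp5j, an inositol phosphatase, in place 18 at 0.81 (SE 0.148) stood on either side of Frmpd3. The 5 genes are thus not the 5 largest differences.

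Sex was not used to pick the genes, and the injury effect was tested for a difference between male and female mice. The fit held 1 term for this, shared by both genotypes. The difference in log2 injury effect, male minus female, was 0.07 (SE 0.233) for Pcdh18, -0.01 (SE 0.218) for Racgap1, 0.00 (SE 0.442) for Chodl, 0.13 (SE 0.188) for Mrvi1 and 0.01 (SE 0.113) for Frmpd3. The adjusted p was 1.0 for each (edgeR quasi-likelihood test over all genes). Over all genes, 0 passed in either direction (0.0%), by edgeR and by DESeq2 alike. In edgeR 0.71% of the genes had an unadjusted p below 0.05, a smaller share than that threshold gives by chance alone. The fit treated the libraries of a mouse as independent, and so small a share means that the test was conservative. It therefore cannot show that the injury effect was the same in male and female mice. Opposite shifts in cKO and wt mice can also cancel in the shared term. The mean log2 ratio of each gene was higher in males than in females among cKO mice, and lower among wt mice. For Racgap1 it was 1.73 in male and 1.44 in female cKO mice, and 0.31 in male and 0.575 in female wt mice. In male mice alone the difference of the injury effects, cKO minus wt, was 1.48 (SE 0.286) for Pcdh18, 1.46 (SE 0.256) for Racgap1, 2.32 (SE 0.494) for Chodl, 1.29 (SE 0.294) for Mrvi1 and 0.91 (SE 0.153) for Frmpd3. In female mice alone it was 1.10 (SE 0.298) for Pcdh18, 0.97 (SE 0.279) for Racgap1, 1.57 (SE 0.513) for Chodl, 0.93 (SE 0.230) for Mrvi1 and 0.77 (SE 0.152) for Frmpd3. Whether the difference, cKO minus wt, itself differs between the sexes was not tested. By label, all male control mice carried Cre and all female ones did not, so the male values are also those with Cre in both genotypes. Female control wt-150 is labelled Adv-Cre- but had Avil levels within the range of the Adv-Cre+ libraries.

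The size of the difference moved with the ribosomal spacer share for some genes. In the 6 mice with a low share it was 2.83 (SE 0.316) for Chodl and 1.075 (SE 0.112) for Frmpd3, and in the 11 mice with a high share 1.25 (SE 0.503) for Chodl and 0.69 (SE 0.142) for Frmpd3. For Pcdh18 it was 1.54 (SE 0.220) with a low and 1.04 (SE 0.254) with a high share, for Racgap1 1.24 (SE 0.213) and 1.10 (SE 0.278), and for Mrvi1 1.03 (SE 0.288) and 1.07 (SE 0.198). The sign was positive in both sets for all 5 genes, which were picked for that sign in these same mice. Males cKO-156, cKO-163, wt-155 and wt-172 were in the low set, and males cKO-194 and wt-195 in the high set. Spacer share thus overlaps with sex, and library totals were mostly higher in the low set. The parts of spacer share, sex and depth in these values cannot be told apart and were not tested.

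**Figure D3:**
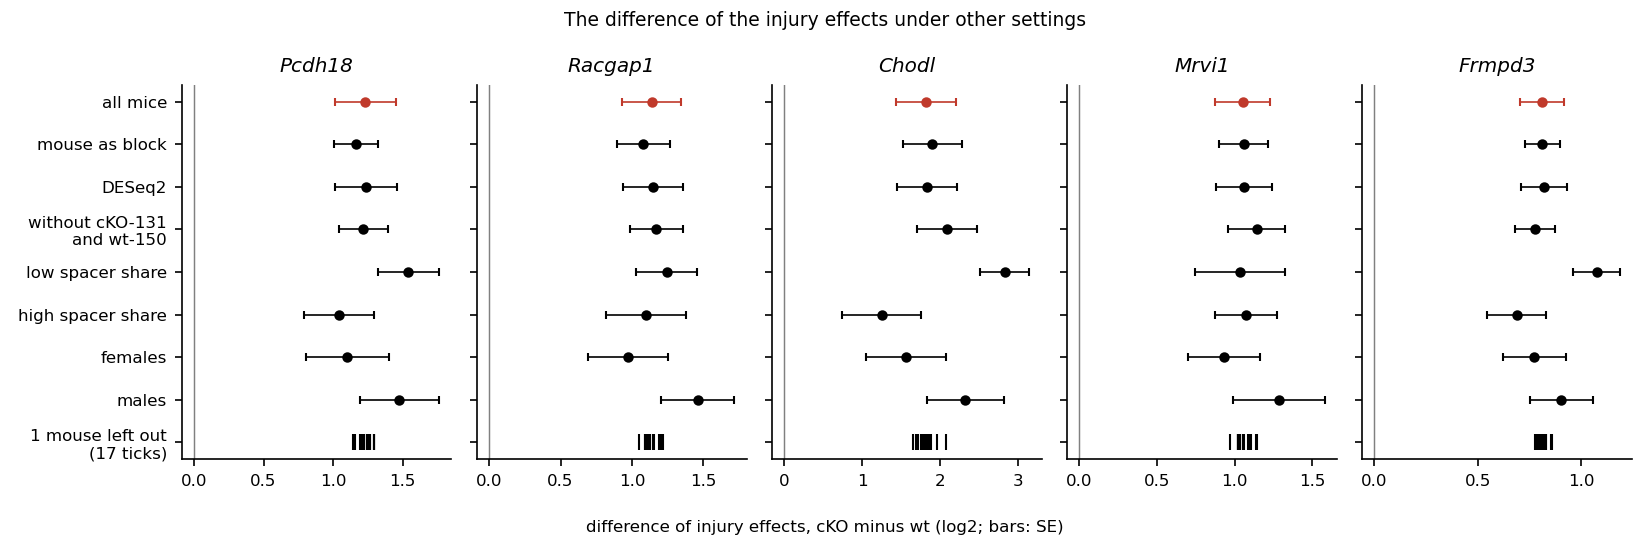
Difference of the injury effects, cKO minus wt, on the log2 scale for the 5 genes in all mice, with the mouse as a block, by DESeq2, without cKO-131 and wt-150, within the sets of low and high ribosomal spacer share and within each sex (bars are SE), and with each of 17 mice left out (ticks). All values lie above 0, the sign the genes were picked for, and Chodl ranges from 1.25 with a high to 2.83 with a low spacer share.

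Pcdh18 and Racgap1 followed each other across libraries. Over the 34 libraries their log2 levels correlated with r = 0.954, the highest value that either gene reached with any of 14652 genes, and the deviations from the group means correlated with r = 0.824. Within groups, r was 0.897 in injured cKO, 0.88 in naive cKO, 0.582 in injured wt and 0.652 in naive wt libraries, and both genes were picked for a higher injury effect in cKO mice, so the value over all 34 libraries draws partly on what the choice used. These values describe libraries that share depth and makeup, and by the deviations Racgap1 was in place 50 among the genes closest to Pcdh18, while Pcdh18 was in place 1 for Racgap1. The genes next in likeness over the 34 libraries were the same for both: Chst5 (r = 0.905 with Pcdh18 and 0.906 with Racgap1) and Grxcr2, a glutaredoxin-like protein of hair cell stereocilia (r = 0.891 with Pcdh18 and 0.909 with Racgap1), among 13172 named genes of at least 1 CPM. By the deviations, r with Pcdh18 was 0.723 for Chst5 and 0.747 for Grxcr2, and with Racgap1 0.714 for Chst5 and 0.681 for Grxcr2. Chst5 was at 6.305 ± 1.91 CPM in injured cKO, 2.827 ± 0.347 CPM in naive cKO, 3.544 ± 0.847 CPM in injured wt and 2.808 ± 0.660 CPM in naive wt libraries (SD, n = 8, 8, 9 and 9).

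**Figure D4:**
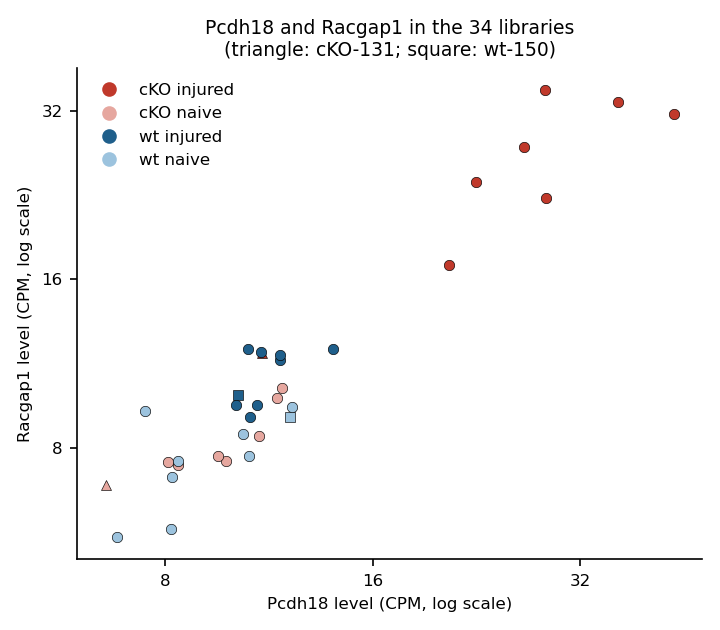
Pcdh18 against Racgap1 level in the 34 libraries, in CPM on log axes, coloured by group; triangles are cKO-131 and squares wt-150. The points lie along 1 line (r = 0.954 on the log2 scale), with 7 of 8 injured cKO libraries at its upper end and cKO-131 among the injured wt libraries.

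The other 3 genes had other neighbours. The genes most like Mrvi1 were Sulf2, an extracellular sulfatase (r = 0.901), Gprc5c, an orphan G protein-coupled receptor (r = 0.833), and Abca8b, an ABC transporter (r = 0.753). Gprc5c was also the closest to Frmpd3 (r = 0.885), followed by Kcng4 (r = 0.849) and Ttc39a (r = 0.838), and was at 52.12 ± 9.00 CPM in injured cKO, 33.5 ± 3.73 CPM in naive cKO, 27.15 ± 3.64 CPM in injured wt and 34.82 ± 4.08 CPM in naive wt libraries (SD, n = 8, 8, 9 and 9). Closest to Chodl were Mccc2, a subunit of a mitochondrial carboxylase of leucine breakdown (r = 0.83), A2m, a protease inhibitor (r = 0.826), and Slc45a3, a sugar transporter (r = 0.824). These r run over the 34 libraries and draw partly on what the choice used. By the deviations from the group means, r with Mrvi1 was 0.784 for Sulf2, 0.413 for Gprc5c and 0.547 for Abca8b. With Frmpd3 it was 0.586 for Gprc5c, 0.531 for Kcng4 and 0.758 for Ttc39a. With Chodl it was 0.604 for Mccc2, 0.653 for A2m and 0.76 for Slc45a3. Among the 5 genes themselves, Chodl was the least like the others: its r over the 34 libraries was 0.387 with Pcdh18, 0.32 with Racgap1, 0.582 with Mrvi1 and 0.604 with Frmpd3, and between -0.083 and 0.098 after group means were taken out, where Mrvi1 was as low, with r between -0.083 and 0.149.

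Whether mice with a larger ratio for 1 gene had a larger ratio for another was computed within each genotype, 30 relations in all with those to Atf3. None passed after Benjamini-Hochberg adjustment (two-sided exact permutation test, smallest adjusted p = 0.143 for Pearson's r and 0.0923 for Spearman's rho). The closest in cKO mice were Chodl with Frmpd3 (r = 0.878, permutation p = 0.00719, adjusted 0.143; rho = 0.833, permutation p = 0.0154, adjusted 0.231) and Pcdh18 with Racgap1 (r = 0.817, permutation p = 0.0117, adjusted 0.143; rho = 0.786, permutation p = 0.0279, adjusted 0.276), both over 8 mice. Without the 2 mice farthest from the median, r was 0.554 for Chodl with Frmpd3 and 0.684 for Pcdh18 with Racgap1. In wt mice the closest was Pcdh18 with Frmpd3 (r = 0.775, permutation p = 0.0143, adjusted 0.143; rho = 0.883, permutation p = 0.00308, adjusted 0.0923; n = 9), and r was 0.733 without the 2 farthest.

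Other genes of the families and pathways around the 5 genes were counted from 5 lists, and Prc1 and Ptpn3 alone passed for the difference by edgeR without the block. Of 9 other delta-protocadherins, 0 passed for the difference of the injury effects, with a median of 0.25 on the log2 scale against 0.01 over all genes tested. Pcdh19, another delta-protocadherin, had the lowest p of these, at 0.48 (SE 0.145, adjusted p = 0.0693, edgeR); with the mouse as a replicate block its adjusted p was 0.0238, and with DESeq2 0.0349. In cKO mice Pcdh19 rose with injury, to 19.5 ± 3.48 CPM in injured against 14.64 ± 1.52 CPM in naive libraries (log2 fold change 0.41, adjusted p = 0.02, edgeR), the 1 call of the list against 510 genes higher (2.61%) and 114 lower (0.583%) over all genes; that call was lost without any one of cKO-130, cKO-152, cKO-163, cKO-193 or cKO-194. In wt mice, where 2789 genes (14.3%) rose and 2494 (12.7%) fell, Pcdh10, Pcdh1 and Pcdh11x fell and Pcdh8 rose. Pcdh10 was at 74.45 ± 14.0 CPM in injured wt against 101.8 ± 13.0 CPM in naive wt libraries (log2 fold change -0.45, adjusted p = 0.000622, edgeR). The call for Pcdh8 (log2 fold change 0.82) was lost without wt-176. With the mouse as a replicate block Pcdh7 and Pcdh9 also fell in wt mice, which makes 5 of 9. That fit called 8003 of the 19565 genes tested in wt mice, up or down.

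Of 14 other genes of the central spindle and of cytokinesis, 0 were higher and 1, Prc1, was lower for the difference, with a median of 0.11. Prc1, the microtubule crosslinker of the spindle midzone, thus had a difference of the opposite sign to that of Racgap1, whose sign was set by the choice. It was at 6.171 ± 1.59 CPM in injured cKO, 4.087 ± 1.23 CPM in naive cKO, 14.95 ± 8.16 CPM in injured wt and 3.136 ± 0.723 CPM in naive wt libraries (SD, n = 8, 8, 9 and 9), with a difference of -1.65 (SE 0.329, adjusted p = 0.00306, edgeR). Its log2 fold change with injury was positive in both genotypes, like that of Racgap1, at 0.60 in cKO (adjusted p = 0.221, edgeR) and 2.25 in wt mice. Kif23, the partner of Racgap1 in centralspindlin, was at 2.959 ± 1.16 CPM in injured cKO, 2.743 ± 1.07 CPM in naive cKO, 2.158 ± 0.705 CPM in injured wt and 2.327 ± 0.751 CPM in naive wt libraries, with a difference of 0.23 (SE 0.337, adjusted p = 0.932, edgeR). Ect2, the exchange factor that centralspindlin recruits, had a difference of 0.13 (SE 0.297, adjusted p = 0.971, edgeR). With injury, 1 of the 14 genes rose in cKO mice, Kif20a (log2 fold change 0.66, adjusted p = 0.016, edgeR), a call lost without cKO-130 or cKO-194, and 5 of 14 rose in wt mice, Prc1, Birc5, Kif20a, Kif4 and Rhoa, against 2.61% of all genes tested in cKO and 14.3% in wt mice. The calls in wt mice for Kif4, Rhoa and Kif20a were each lost without wt-176, and those for Kif4 and Rhoa also without several other single mice and without cKO-131 and wt-150 together. With the mouse as a replicate block, Cit, a kinase of the cleavage furrow, also passed for the difference (0.40, adjusted p = 0.0384).

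Markers of dividing cells were set beside Racgap1. Their 12 genes, which include Mki67 and Top2a, summed to 52.39 to 147.7 CPM (median 67.47) in injured cKO, 38.77 to 98.47 CPM (median 50.34) in naive cKO, 41.49 to 82.32 CPM (median 49.89) in injured wt and 31.89 to 70.73 CPM (median 40.98) in naive wt libraries, and 0 of 12 were at 0 in all libraries. For the difference, 0 of 12 passed, with a median of 0.02. With injury, 1 of 12 rose in cKO mice (2.61% of all genes) and 3 of 12 in wt mice (14.3%), with medians of 0.72 in cKO and 0.65 in wt mice on the log2 scale, against 0.02 over all genes in each. Among injured cKO libraries, cKO-194 had both the highest Racgap1 level, 34.79 CPM, and the highest sum, 147.7 CPM, while cKO-131 had the lowest Racgap1 level, 11.85 CPM, and the next highest sum, 95.93 CPM. The part of dividing cells in the Racgap1 result was not tested. Markers of fibroblasts, pericytes and smooth muscle, and endothelial cells likewise had 0 genes called for the difference. Of 10 macrophage markers 2 were lower, as were 1 of 8 satellite glia markers, Glul (-0.71, adjusted p = 0.0306, edgeR), and 1 of 12 pan-neuronal markers, Stmn2 (-0.50, adjusted p = 0.0485, edgeR), against 2.15% of all genes. The median difference of the macrophage markers was -1.17 on the log2 scale, against 0.01 over all genes. With injury, 8 of 10 rose in wt mice (14.3% of all genes) and 0 of 10 in cKO mice (2.61%). Macrophage markers summed to 13.09 to 54.24 CPM in injured cKO, 11.74 to 36.79 CPM in naive cKO, 25.7 to 65.72 CPM in injured wt and 3.438 to 25.15 CPM in naive wt libraries, with 0 of 10 at 0 in all libraries. The part of macrophages in the results was not tested.

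Of 5 lectins related to Chodl by domain (Layn, Clec14a, Cd93, Cd248 and Thbd), 0 passed for the difference, with a median of -0.10. Layn, the nearest relative of Chodl, was low, at 1.137 ± 0.427 CPM in injured cKO, 0.903 ± 0.409 CPM in naive cKO, 1.039 ± 0.381 CPM in injured wt and 0.800 ± 0.291 CPM in naive wt libraries. In cKO mice 0 changed with injury, and in wt mice 1, Cd248, rose (log2 fold change 1.05, adjusted p = 0.0193, edgeR), a call lost without wt-172 or wt-176. Cd248 is also a marker of pericytes and fibroblasts, and their part in this result was not tested.

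Of 18 other genes of nitric oxide and cGMP signalling, 0 passed for the difference, with a median of 0.13. Itpr1, the inositol trisphosphate receptor that Mrvi1 binds, rose with injury in both genotypes: it was at 81.59 ± 24.4 CPM in injured cKO against 15.78 ± 3.94 CPM in naive cKO libraries (log2 fold change 2.39, SE 0.185, adjusted p = 1.67e-10, edgeR), and at 52.78 ± 14.4 CPM in injured wt against 15.36 ± 3.44 CPM in naive wt libraries (log2 fold change 1.79, SE 0.171, adjusted p = 1.3e-09, edgeR). Its difference was 0.60 (SE 0.242, adjusted p = 0.231, edgeR). Prkg1, the cGMP-dependent kinase that phosphorylates Mrvi1, was at 92.39 ± 11.9 CPM in injured cKO, 102.7 ± 9.82 CPM in naive cKO, 80.74 ± 16.7 CPM in injured wt and 106.3 ± 11.3 CPM in naive wt libraries. Prkg1 fell with injury in wt mice (log2 fold change -0.40, adjusted p = 0.000802, edgeR), and its value in cKO mice was -0.15 (adjusted p = 0.535, edgeR). Nos1, a nitric oxide synthase of neurons, and Pde2a, a phosphodiesterase, also fell in wt mice, by 0.25 and 0.28 on the log2 scale, but the call for Nos1 was lost without wt-175, and that for Pde2a without any one of 12 mice and without cKO-131 and wt-150 together. In cKO mice Itpr1 was the only call. With the mouse as a replicate block Pde2a fell there too (-0.30, adjusted p = 0.0091, edgeR), and in wt mice 3 genes rose and 5 fell. The fit with the block called 8003 of the 19565 genes tested in wt mice, up or down. Nppc, a peptide ligand of Npr2, did not pass the low-count filter.

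Of 6 other proteins with FERM or PDZ domains, 1, Ptpn3, a tyrosine phosphatase, was higher for the difference, with a list median of 0.22. Ptpn3 was at 140.5 ± 21.9 CPM in injured cKO, 117.2 ± 11.1 CPM in naive cKO, 116.8 ± 5.42 CPM in injured wt and 122.0 ± 12.0 CPM in naive wt libraries (SD, n = 8, 8, 9 and 9), with a difference of 0.32 (SE 0.091, adjusted p = 0.046, edgeR); the call was lost in 13 of 17 fits that leave out 1 mouse. The near relatives of Frmpd3, Frmpd1 and Frmpd4, fell with injury in wt mice, by 0.60 (adjusted p = 9.65e-06, edgeR) and 0.61 (adjusted p = 0.000357, edgeR) on the log2 scale, as did the sorting nexin Snx27 by 0.26. In cKO mice Frmpd1 was at 177.0 ± 18.9 CPM in injured and 201.6 ± 15.2 CPM in naive libraries (-0.19, adjusted p = 0.419, edgeR). The difference was 0.41 for Frmpd1 (adjusted p = 0.105, edgeR) and 0.44 for Frmpd4 (adjusted p = 0.257, edgeR). With the mouse as a replicate block both passed, at 0.44 (adjusted p = 0.0227, edgeR) for Frmpd1 and 0.42 (adjusted p = 0.0338, edgeR) for Frmpd4. Then 3 of the 6 genes were higher, in a fit that called 1474 of the 19565 genes tested, up or down. In cKO mice Ptpn3 was the only gene that rose (0.26, adjusted p = 0.0183, edgeR), a call lost without cKO-152, cKO-163 or cKO-193, and with the block Snx27 fell there (-0.13, adjusted p = 0.0338) and Ptpn4 rose in wt mice (0.29, adjusted p = 0.00103). Frmpd2 did not pass the low-count filter.

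**Figure D5:**
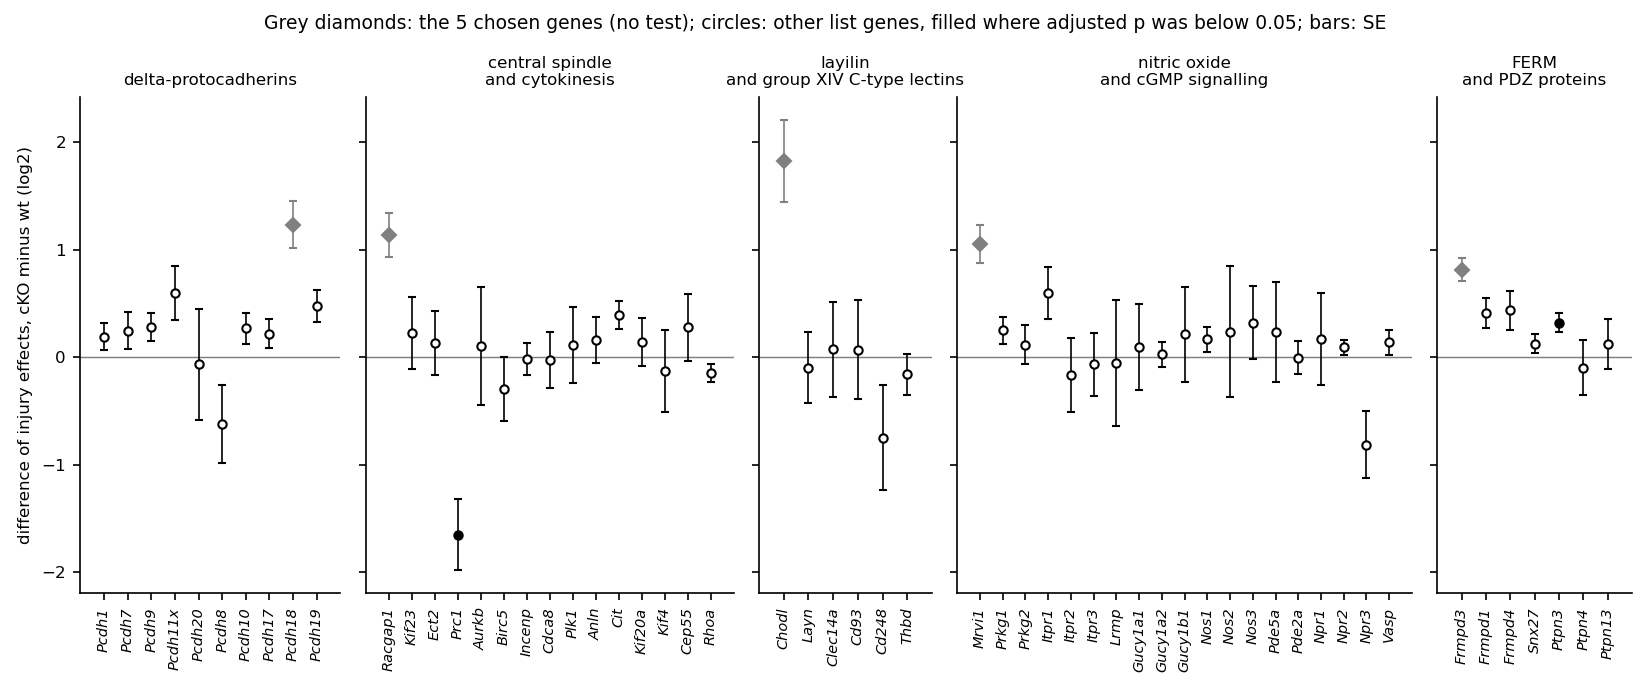
Difference of the injury effects, cKO minus wt, on the log2 scale (bars are SE) for the 5 chosen genes, drawn as grey diamonds with no test, and for the other genes of 5 lists that passed the low-count filter; filled circles had an adjusted p below 0.05. Prc1 lies lowest at -1.65 and Ptpn3 at 0.32 is the only other list gene that passed as higher. The chosen genes were picked for this difference, so their place above the others of their lists is set by the choice.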

How the data were processed

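The authors deposited whole-number read counts for 48795 Ensembl genes in 34 mouse libraries. Per the submitters' processing notes, the tools were bcl2fastq 2.20, STAR and HTSeq and the build GRCm38; the libraries were stranded and read in pairs, per the labels' protocols. How strand was set in counting is not given in the sources used here; reads of overlapping genes on opposite strands may not be told apart. Symbols were matched for 48349 IDs; the other 446 hold 0.0428% of counts. Rows without an ID and columns of no sample numbered 0.

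The members and gene lists were chosen with earlier results of these data known. Members, Atf3, list genes that passed or are abundant, the 3 genes most like each member and those next to them in rank were named by rule, 1 of which is not reported here; Pcdh19, Kif23, Ect2, Layn, Glul, Stmn2 and the antisense gene were chosen after their values were seen.

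Counts were fitted with edgeR 4.0.16 in R 4.3.3 (TMM, filterByExpr by group, robust quasi-likelihood, 4 groups plus sex, all libraries), which kept 19565 genes with 99.965% of counts; sex by side was added for the test of sex. Benjamini-Hochberg adjusted p-values below 0.05 passed. CPM is TMM-scaled; ratios and correlations use a prior count of 2. Replicates are animals, and the 2 libraries of a mouse pair by the animal: their deviations from the group means correlated at a median of 0.576 (0.103 to 0.843, 17 pairs). On simulated counts for the difference (19345 genes), 82 of 100 genes changed by 1 on the log2 scale were called. Of those changed by 2, 96 of 100 were called, with 6 false calls. For sex by side (19352 genes) the numbers called were 81 and 98, with 8 false calls. The simulated libraries were drawn with no effect shared by the 2 libraries of a mouse, unlike the real ones. These rates may therefore not hold for the real libraries. Alternatives were DESeq2 1.42.0, median-ratio size factors, no low-count filter, the mouse as a replicate block, spacer-share sets, each sex, and leaving out mice; the separation counts without cKO-131 or wt-150 and the list calls under alternatives were added after seeing the data. Promoter sequences are RefSeq's (GRCm38.p6), matched by symbol for 5 of 5 members.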

Additional observations from a re-analysis of the deposited data

Results flagged for a closer look

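Of 30 groups of values looked at, for the 5 genes and Atf3, 2 held a sample far from the others by Dixon's test, and chance flags about 1 group in 20. The injured wt library of wt-172 had the highest Pcdh18 level of its group, 13.99 CPM, with a gap to its neighbour of 0.586 of the range of the group (critical value 0.493). The injured wt library of wt-175 had the highest Mrvi1 level of its group, 5.044 CPM, with a gap of 0.523 of the range. The Pcdh18 value lay below 7 of 8 injured cKO libraries and the Mrvi1 value below 8 of 8.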

How the results depend on the processing

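For the 5 genes, the difference of the injury effects was positive in all 130 values over 26 alternatives. The genes were picked for a positive difference in these same mice, so nothing is read from that sign. Of 760 alternative values of the genes' effects, 756 moved by less than the spread between mice and 0 changed sign among called values. The other 4 were Chodl and Frmpd3 in mice with a low spacer share, at 2.71 and 0.92 for cKO over wt on the injured side and at 2.83 and 1.075 for the difference; the cause was not tested.

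Counts of genes called over the whole table moved more. For the difference of the injury effects, 556 genes passed in all mice, 1474 with the mouse as a replicate block, 3 with a low and 48 with a high spacer share, 67 in females and 0 in males; leaving out 1 mouse gave 339 (without wt-172) to 717 (without wt-141). For the injury effect in cKO mice, 624 passed, 1643 with the replicate block, 384 with a low and 133 with a high spacer share, 126 in females and 99 in males; leaving out 1 mouse gave 345 (without cKO-163) to 926 (without wt-176). For the injury effect in wt mice, 5283 passed, 8003 with the replicate block, 3121 with a high spacer share, 2923 in females and 814 in males; leaving out 1 mouse gave 4149 to 5587. The sets and the sexes hold fewer mice. The test of sex gave 0 in every alternative run, and the calls of list genes that the block changed and that bear on a gene named are given beside it.

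Limits: groups are small within sexes and spacer sets, these overlap, and control males and females differ in Cre by label. Chodl rests on as few as 10 counts, and whole-gene counts do not show the deletion of Atf3.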
